A study of Mus musculus with 12 samples.

Results

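The genes described here encode the proteins of the cytosolic ribosome in mouse. Of 15081 genes named by a single symbol on the arrays, 66 carried a ribosomal protein symbol of the form Rps or Rpl with a number, or were Rpsa, Rplp0, Rplp1 or Rplp2. Pseudogenes and the S6 kinases were left out. These 66 genes comprised 24 of the small subunit and 42 of the large subunit. A value on all 12 arrays was available for 64 of them, all 24 small subunit genes and 40 large subunit genes, and these 64 entered the comparisons. They were tested among 10762 features, of which 8707 were named genes. Rpl23 had a pair of spots with 11 values each and Rpl37 had a value on 1 array, so neither was tested.

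The study set a wild-type form (WT) of the growth hormone receptor against an NLS form, letters that commonly stand for nuclear localization signal, and each form was sampled under a 0 and a 1 before GH. The 4 groups of 3 arrays are written WT 0GH and WT 1GH, then NLS 0GH and NLS 1GH, and the arrays of a group carry the letters b, c and d. The labels list 100 ng/ml of human growth hormone for every sample, 0GH included. They give no unit to the 0 and the 1, and do not say what the 10 in every title means. The cell type, the number of clones and whether the letters are separate cultures are not named either, so p-values measure the spread between these samples, which may be technical. Each array paired the Cy3-labelled RNA of a sample with the same embryonic reference in Cy5, with no dye swap.

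A ribosome joins a small subunit, which reads the messenger RNA, to a large subunit, which makes the peptide bond. Each subunit is built from ribosomal RNA and many proteins, most of which are needed in equal number, and loss of either kind of subunit limits growth. Messenger RNAs of ribosomal proteins in mammals start with a C followed by a run of pyrimidines, the terminal oligopyrimidine or TOP motif, through which signalling by the TOR kinase adjusts how much of them is translated. Growth hormone acts through a receptor coupled to JAK2 and STAT5 and also reaches TOR signalling. Arrays measure RNA levels and not translation.

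The starts of 6 ribosomal protein genes with a TOP-like start and of 2 without are printed here, to let the class be seen beside its values. Each window holds 15 bases before and 15 bases after the start annotated in RefSeq (GRCm38.p6), read 5′ to 3′ on the gene's strand. Capitals mark the match, which was defined as a C within 5 bases of the annotated start followed by at least 4 bases that are each C or T. The windows lie at chr4:86857353-86857382 on the minus strand (Rps6), chr17:27635230-27635259 on the minus strand (Rps10), chr17:33955651-33955680 on the minus strand (Rps18), chr2:39005117-39005146 on the minus strand (Rpl35), chr7:141447636-141447665 on the plus strand (Rplp2), chr2:26910792-26910821 on the plus strand (Rpl7a), chr5:107900513-107900542 on the plus strand (Rpl5) and chr7:99483695-99483724 on the minus strand (Rps3).
Rps6: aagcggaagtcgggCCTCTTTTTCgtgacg
Rps10: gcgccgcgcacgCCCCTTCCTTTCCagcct
Rps18: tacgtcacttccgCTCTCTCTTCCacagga
Rpl35: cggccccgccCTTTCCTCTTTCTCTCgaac
Rplp2: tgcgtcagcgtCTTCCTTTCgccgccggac
Rpl7a: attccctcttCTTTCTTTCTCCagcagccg
Rpl5: tctcacgtcgcttgcgtgctggtggtgcta
Rps3: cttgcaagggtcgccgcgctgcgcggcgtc

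A start sequence was held for 54 of the 64 genes, and 23 of them (42.6%) had the match at 1 or more of their annotated starts. Over all 27025 genes with a start sequence the share was 19.7%. Among small subunit genes 9 of 21 matched, and among large subunit genes 14 of 33. The search looked only at these letters at the annotated start, which can lie some bases from the start that cells use, so a gene without a match here is not thereby shown to lack the motif.

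The deposited values were read as log2 ratios, with sample over reference after their sign was turned. The base of the log is not stated and was inferred, and the values, from -14.58 to 18.18, reach beyond the 8.36 that a 16-bit scanner could give on that scale over the floor of 200 set for the control channel. Sizes below are therefore on the scale of the deposited values. The direction is likely rather than stated: after turning, 40 of 44 embryo-tissue genes lay below the array median, at a median of -4.59, and 8 of 9 leukocyte genes above it, at a median of 3.02. Lists of single blood lineages were mixed. Of B lymphoid genes 8 of 11 lay above it (median 0.39). Below it lay 6 of 9 myeloid and mast cell genes (-1.71), 3 of 5 T lymphoid genes (-0.37) and 2 of 3 erythroid genes (-0.13). Under the opposite reading every sign below turns. Between 15939 and 19700 spots per array had a value, as did 45 to 112 of 573 blank spots. The number of arrays, rather than a read depth, limits the precision. All values below were centred on the median of the 10762 features of their array, so that 0 is the typical feature. A value of 1 is a doubling of the ratio against it only if the base is 2. A ratio compares the sample with the embryonic reference and is no measure of how abundant a transcript is. In bulk RNA of this kind, fewer cells of a type and less RNA per cell cannot be told apart.

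Ribosomal protein genes lay on the sample side of the reference. Their mean level was above 0 for 61 of 64 genes, with a median of 0.61, where 51.4% of all features were above 0 and the median of all was 0.04. In limma's test of the level against 0, 39 of the 64 were higher at an adjusted p under 0.05 and 0 were lower, against a background in which 46.1% of all features passed, 22.9% above 0 and 23.2% below it. At an unadjusted p under 0.05 the count was 45 of 64, with 54.0% of all features passing. The 39 calls fell to 13 when the arrays of letter c were left out and to 21 when those of letter d were, with 26% and 25.6% of all features passing in those fits. With the letter as a random block, at an estimated correlation, 34 members and 36.8% of all features passed.

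**Figure D1:**
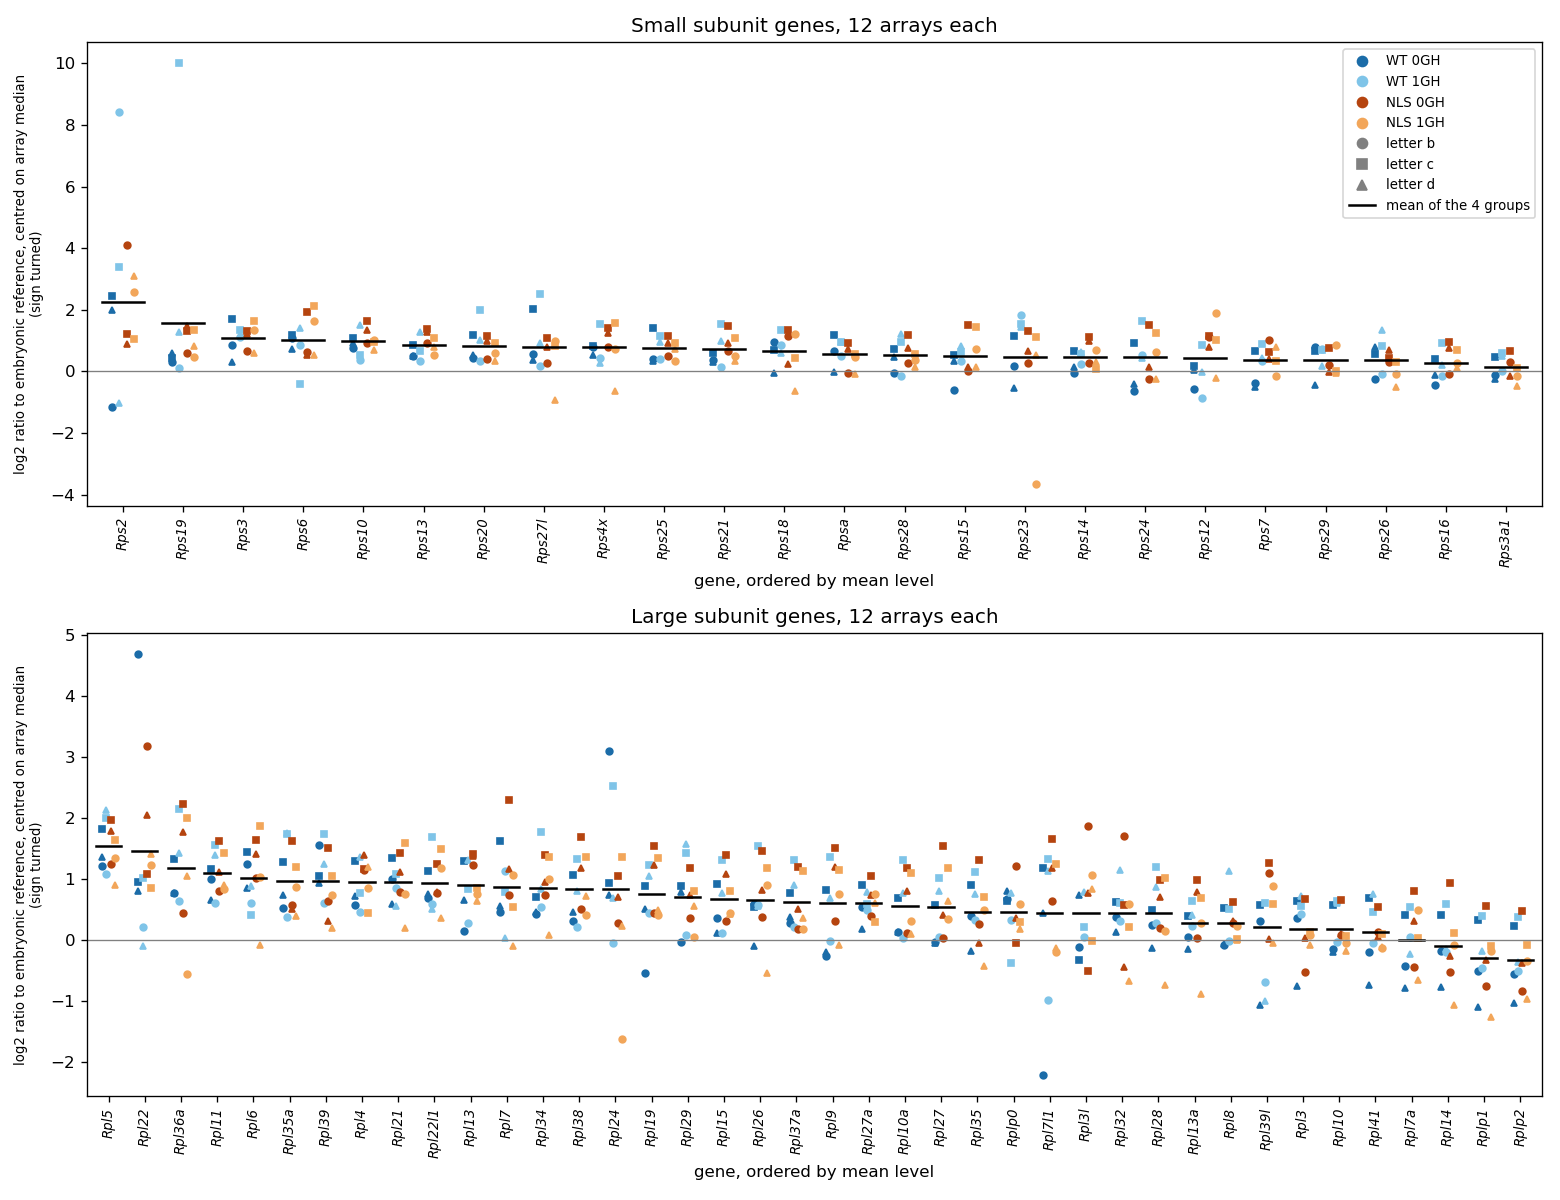
Level of each ribosomal protein gene on each of the 12 arrays, as the centred log2 ratio to the embryonic reference, for 24 small and 40 large subunit genes ordered by mean level. Colours are the 4 groups, symbols the letters b, c and d, and black bars the mean of the 4 groups. Most genes lie between 0 and 2, and single arrays of Rps19 (10) and Rps2 (8.43) stand far above the rest.

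Rpl5 and Rpl11 belong together, since both bind the smallest RNA of the large subunit and both bind Mdm2, the ligase that degrades p53. Rpl5 had the smallest p of all members. It read 1.21, 1.82 and 1.35 in WT 0GH, 1.07, 1.99 and 2.13 in WT 1GH, 1.25, 1.96 and 1.79 in NLS 0GH, and 1.34, 1.63 and 0.89 in NLS 1GH, in the order b, c, d. Every array was above 0 and the 4 groups overlapped. Its mean level was 1.54 (SE 0.15, limma adjusted p = 4.33e-05). The Entrez identifier of the Rpl5 spot is not in the RefSeq table used, and the start printed above was found by symbol. Rpl11 read 1.0, 1.16 and 0.65 in WT 0GH, 0.61, 1.55 and 1.39 in WT 1GH, 0.80, 1.62 and 1.11 in NLS 0GH, and 0.84, 1.43 and 0.89 in NLS 1GH. Here too every array was above 0, with a mean of 1.09 (SE 0.14, limma adjusted p = 0.00025).

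Rps3, which lines the entry channel of the messenger RNA, Rps10, a small subunit protein mutated in some Diamond-Blackfan anaemia, and Rpl4, which lines the peptide exit tunnel, completed the 5 members with the smallest p. Rps3 ranged from 0.31 to 1.69 over the 12 arrays, at a mean of 1.10 (SE 0.16, limma adjusted p = 0.000442). For Rps10 the range was 0.37 to 1.63 and the mean 0.98 (SE 0.14, limma adjusted p = 0.0004). Rpl4 ranged from 0.43 to 1.39, at a mean of 0.94 (SE 0.13, limma adjusted p = 0.000445). None of the 3 fell below 0 on any array.

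Rps6, the substrate of the S6 kinases, read 1.09, 1.19 and 0.74 in WT 0GH, 0.85, -0.40 and 1.40 in WT 1GH, 0.62, 1.93 and 0.52 in NLS 0GH, and 1.64, 2.11 and 0.54 in NLS 1GH. It was above 0 on 11 of 12 arrays, with letter c of WT 1GH as the exception. Its mean level was 1.02 (SE 0.21, limma adjusted p = 0.00357).

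Other small subunit genes sat closer to the array median. Rps14, a protein of the platform whose gene is lost in a human form of anaemia, averaged 0.47 (SE 0.13, limma adjusted p = 0.0156), between -0.06 and 1.13. Rpsa, also known as the laminin receptor precursor, averaged 0.57 (SE 0.15, limma adjusted p = 0.0116). Its 2 spots differed in level, with group means of 0.04 to 0.58 on the first and 0.39 to 1.05 on the second. Rps27l, a paralog of Rps27 that p53 induces, averaged 0.80 (SE 0.26, limma adjusted p = 0.0283). Rps27a and Rpl10l were not analysed here.

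The acidic stalk is where elongation factors dock on the large subunit, and its proteins Rplp1 and Rplp2 were the lowest of all members. Rplp2 read -0.56, 0.22 and -1.04 in WT 0GH, -0.51, 0.37 and -0.37 in WT 1GH, -0.84, 0.47 and -0.38 in NLS 0GH, and -0.35, -0.09 and -0.97 in NLS 1GH. Rplp1 ran between -1.27 and 0.55. Both lay below 0 on all 8 arrays of letters b and d, and above 0 on 3 of the 4 arrays of letter c. Their mean levels were -0.34 (SE 0.18) and -0.30 (SE 0.19), and neither passed (limma adjusted p = 0.138 and 0.216). Rpl14 (-0.10) was the only other member with a mean below 0, and Rpl7a stood at 0.00. The spots of Rplp1, Rplp2, Rpl14 and Rpl7a all carried 4 as the third number of their position, where member spots read lowest, as described further on. Rplp0, which anchors the stalk, averaged 0.45 (SE 0.15, limma adjusted p = 0.0344) over 2 spots that did not run alike, as described further on. The spot whose Entrez identifier is in the RefSeq table used averaged -0.16, and the spot whose identifier is not averaged 1.05. The level of Rplp0 above 0 thus rests on the latter spot.

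Among other large subunit genes, Rpl10, which completes the subunit late in its assembly, averaged 0.17 (SE 0.13, limma adjusted p = 0.304). Rpl13a, known also for silencing inflammatory transcripts when released from the ribosome, averaged 0.28 (SE 0.16, limma adjusted p = 0.182). Of the large subunit paralogs listed here, Rpl22l1 ranked 15 of 64 from the top in mean level. Rpl3l, Rpl7l1 and Rpl39l ranked 46, 47 and 56. Rpl22l1, the paralog of Rpl22, averaged 0.93 (SE 0.16, limma adjusted p = 0.0011). Rpl3l, the muscle paralog of Rpl3, averaged 0.44 (SE 0.22), Rpl7l1 0.44 (SE 0.32) and Rpl39l, the testis paralog of Rpl39, 0.21 (SE 0.21). These 3 did not pass (limma adjusted p = 0.117, 0.294 and 0.452). Ribosomal protein genes have close copies in the genome, spot sequences were not used here, and how far copies share signal was not tested.

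Small and large subunit genes had nearly the same level. All 24 small subunit genes and 37 of 40 large subunit genes were above 0, with medians of 0.62 and 0.61, and 15 of 24 and 24 of 40 were called higher. On single arrays the median of the small subunit minus that of the large ranged from -0.09 to 0.17. The mean of this difference with the WT receptor was -0.05 ± 0.05 (SD, n = 3) at 0GH and 0.06 ± 0.14 at 1GH. With the NLS receptor it was 0.01 ± 0.04 at 0GH and 0.11 ± 0.02 at 1GH. In NLS 1GH the small subunit median was the higher one on all 3 arrays, by 0.13, 0.10 and 0.09. The members' medians themselves spread from 0.16 to 1.20 over the 12 arrays, so the subunits moved much further together than apart.

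**Figure D2:**
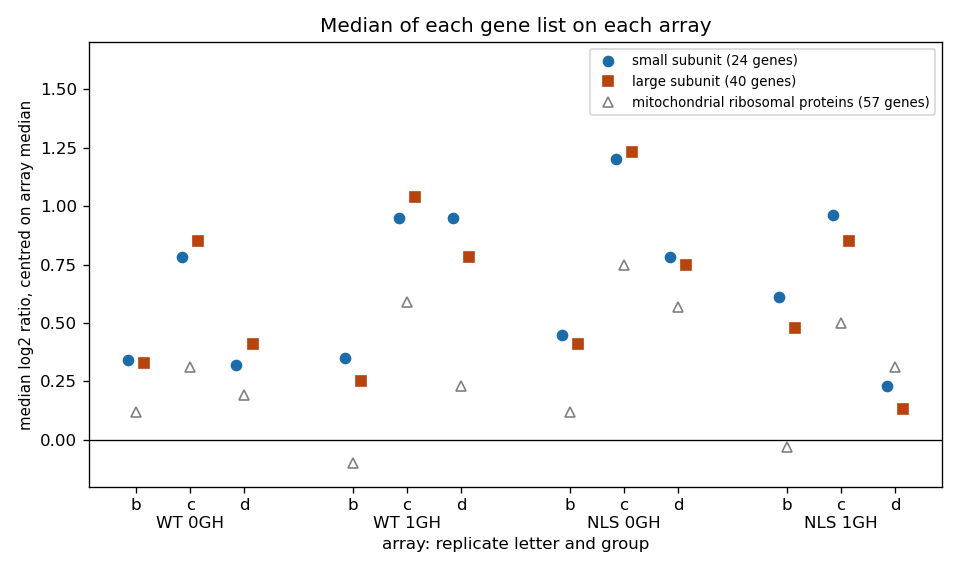
Median centred log2 ratio of small subunit genes (24), large subunit genes (40) and mitochondrial ribosomal protein genes (57) on each array, by group and replicate letter. Small and large subunit medians differ by no more than 0.17, while the medians range from 0.13 to 1.23, with the large subunit median highest on letter c in every group.

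The members' level differed with the replicate letter. Their median was 0.33, 0.82 and 0.33 in WT 0GH, 0.32, 1.01 and 0.79 in WT 1GH, 0.42, 1.20 and 0.77 in NLS 0GH, and 0.56, 0.93 and 0.16 in NLS 1GH, for letters b, c and d. In each group the array of letter c was the highest. The group means were 0.50 ± 0.28 (SD, n = 3), 0.71 ± 0.35, 0.80 ± 0.39 and 0.55 ± 0.39, and the groups overlapped.

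Compared over the 4 arrays of each letter, 27 of 64 genes were lower on every array of b than on any of c, and 0 were higher, where 15.6% of all features did not overlap between b and c. Between c and d, 9 genes were higher in c and 1 in d (7.7% of all features), and between b and d 2 were higher in b and 4 in d (8.82%). The labels give the same red dye incorporation to all arrays of a letter, at 19.3 (b), 19.8 (c) and 17.9 (d) bases per dye.

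The scale of the array ran with these values. Before centring, the median of all features was -0.32, -0.41, -0.52 and 0.12 on the arrays of letter c, the 4 lowest of the 12, and those same arrays had the 4 highest members' medians after centring. The 3 arrays with the highest medians before centring were NLS 1GH d (1.46), WT 0GH d (1.15) and NLS 0GH b (0.94), and there the members' medians were 0.16, 0.33 and 0.42. Without centring, the order of the letters turned: the members' median was 0.50 to 1.05 on the arrays of letter c, 0.85 to 1.36 on b and 1.29 to 1.62 on d. The part of this scale in the differences between groups was tested only by refitting without centring, and those values stand beside each comparison.

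Ribosomal protein genes were among the steadier features. The median of their within-group SD was 0.52, against 1.0 for all features, and 58 of 64 lay below the median of all. Mitochondrial ribosomal protein genes had a median SD of 0.87 and factors of ribosome assembly one of 0.99. The smallest values belonged to Rpl27a (0.28), Rps13 (0.32) and Rpl10 (0.33). Rpl27a read 0.53, 0.89 and 0.17 in WT 0GH, 0.48, 0.58 and 0.78 in WT 1GH, 0.39, 1.04 and 0.74 in NLS 0GH, and 0.75, 0.29 and 0.61 in NLS 1GH. All 12 values were positive and the groups overlapped. This holds for the first of its 2 spots, since the second had a value on 9 arrays and ran from -3.68 to 1.34.

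**Figure D3:**
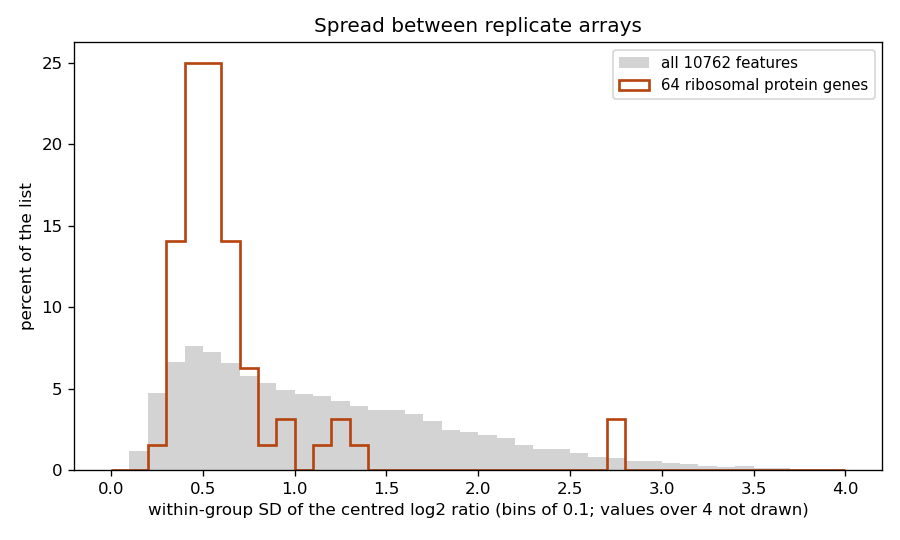
Distribution of the within-group SD of the centred log2 ratio in bins of 0.1, as percent of 64 ribosomal protein genes (outline) and of all 10762 features (grey). Most ribosomal protein genes lie below 0.8, and Rps2 and Rps19 stand apart near 2.7.

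In all, 6 genes had a within-group SD over 1, and in each 1 or a few arrays stood far from the others. Rps2, which guards the entry of the messenger RNA, had the largest, 2.77. It read -1.17, 2.45 and 1.99 in WT 0GH, 8.43, 3.38 and -1.03 in WT 1GH, 4.12, 1.20 and 0.90 in NLS 0GH, and 2.59, 1.06 and 3.11 in NLS 1GH. Rps19, the gene most often mutated in Diamond-Blackfan anaemia, had an SD of 2.72. Its values were 0.31, 0.43 and 0.59 in WT 0GH, 0.10, 10 and 1.27 in WT 1GH, 0.60, 1.32 and 1.48 in NLS 0GH, and 0.46, 1.35 and 0.82 in NLS 1GH, so that 11 of 12 arrays lay within 0.10 and 1.48 and a single array of WT 1GH far above. Rps2 has the highest mean level of the members (2.25) and Rps19 the second highest (1.56), and for Rps19 that place rests on this array.

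Rps23 (SD 1.40) sits in the decoding centre. It was at -3.67 on letter b of NLS 1GH and between -0.53 and 1.82 on the other arrays. Rpl22 (SD 1.26), an RNA-binding protein needed for lymphocyte development, was at 4.69 on letter b of WT 0GH and 3.18 on letter b of NLS 0GH, and at most 2.05 elsewhere. Rpl24 (SD 1.21), which forms a bridge between the subunits, was at 3.09 on letter b of WT 0GH, 2.53 on letter c of WT 1GH and -1.63 on letter b of NLS 1GH. Rpl7l1 (SD 1.20) was at -2.22 on letter b of WT 0GH. For these 4 genes and Rps2 the value farthest from the others fell on an array of letter b.

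After group means were taken out, the members moved together from array to array. Over the 12 arrays the median correlation between any 2 members was 0.50, and 84.1% of pairs were above 0. The same median was 0.01 for pairs of all features (50.6% above 0), 0.06 for mitochondrial ribosomal protein genes and 0.09 for assembly factors. These arrays share a reference, a scale and, within a letter, a dye incorporation, so the correlations are a description of these 12 arrays. With the median of the other members, 51 of 64 genes correlated at over 0.5. Rpl9, a protein of the stalk base, was the most alike (0.98), followed by Rpl10a (0.95) and Rplp2 (0.94). Rpl3l (-0.64), Rplp0 (-0.55), Rps2 (-0.44) and Rpl22 (-0.34) ran against the others.

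The first question was how the members differed between 1GH and 0GH with the wild-type receptor. Most were a little higher at 1GH, and none passed the test. The difference of WT 1GH minus WT 0GH was above 0 for 55 of 64 genes, where 52.5% of all features were above 0. Its median was 0.31 for the members and 0.03 for all features. No member passed at an adjusted p under 0.05 (0.0% of all features did) or at an unadjusted p under 0.05 (2.69% of all features). The median SE of a single member was 0.47. Groups did not overlap for 1 gene, Rps23, higher at 1GH, against 5.65% of all features.

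Small and large subunit genes differed alike, with 22 of 24 and 33 of 40 above 0 and medians of 0.30 and 0.32. Within letters, however, the members' median difference was -0.06 for b, 0.22 for c and 0.64 for d. With letter d left out it was 0.09, with 42 of 64 above 0. Leaving out single arrays gave 0.14 without WT 1GH c and 0.16 without WT 0GH d, with 48 and 45 above 0, and 0.51 without WT 0GH c and 0.53 without WT 1GH b. Without centring it was 0.05, with 37 of 64 above 0, where the median of all features was -0.23. Thus the shift stood relative to the other features of the array, and not in the deposited ratios themselves. In 20 of 64 genes (31.2%) the difference was above 0 in all 3 letters, against 13.9% of all features, and in 2 it was below 0 in all 3 (3.12%, against 9.91%).

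By smallest p among those above 0, the first were Rps19, Rps7 and Rps24, and among those below 0 Rpl22, Rpl6 and Rplp0. For Rps19 the difference was 3.35 (SE 2.0) and came from the single array at 10. Rps7, a small subunit protein that also binds Mdm2, read -0.39, 0.68 and -0.52 in WT 0GH and 0.35, 0.90 and 0.45 in WT 1GH. The groups overlapped through letter c of WT 0GH, and the difference was 0.64 (SE 0.43, limma unadjusted p = 0.169). Rps24 differed by 0.91 (SE 0.65), from -0.65, 0.92 and -0.40 to 0.54, 1.63 and 0.43. Rpl22 differed by -1.77 (SE 0.96, limma unadjusted p = 0.0944), from 4.69, 0.95 and 0.80 to 0.21, 1.01 and -0.11, with overlap at letter c. Rpl6 differed by -0.55 (SE 0.49) and Rplp0 by -0.46 (SE 0.43). In limma's test each of these 6 had an adjusted p of 1.0.

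Rps23, whose WT groups did not overlap, read 0.19, 1.16 and -0.53 in WT 0GH and 1.82, 1.55 and 1.43 in WT 1GH. Its difference was 1.33 (SE 1.06, limma unadjusted p = 0.237). The SE draws on all 4 groups and so includes the array at -3.67.

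**Figure D4:**
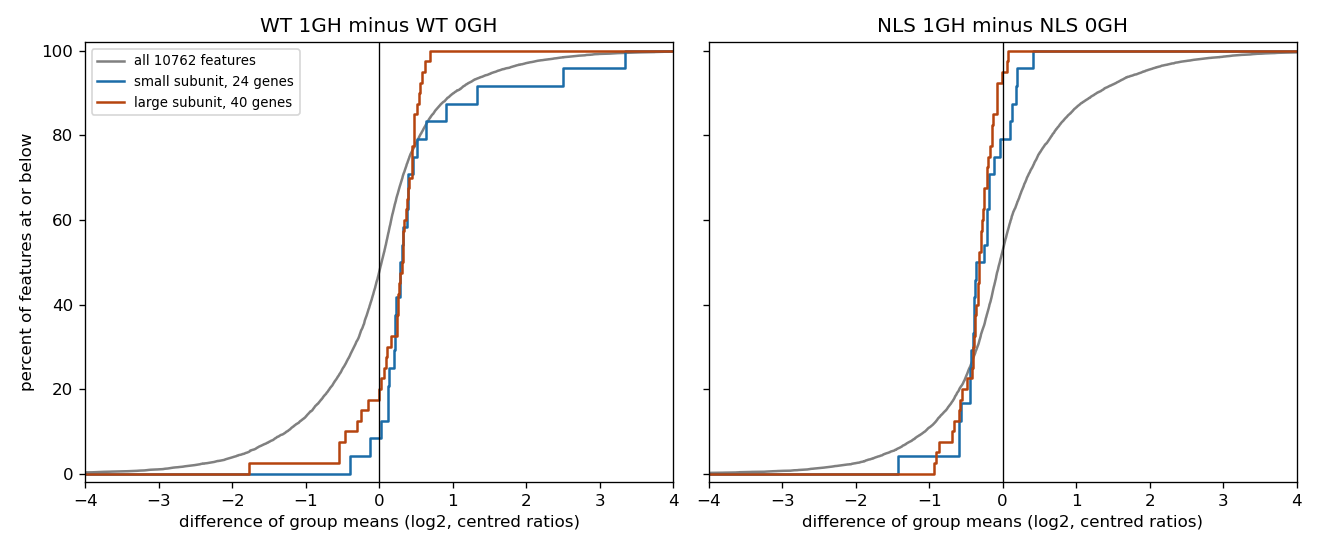
Cumulative percent of small subunit genes, large subunit genes and all 10762 features by the difference of 1GH minus 0GH on the log2 scale, with the WT receptor (left) and the NLS receptor (right). Both subunits lie to the right of 0 with WT (medians 0.30 and 0.32) and to the left with NLS (medians -0.31 and -0.32), while all features centre near 0, and no member passed the test.

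With the NLS receptor the difference of 1GH minus 0GH ran the other way. It was above 0 for 7 of 64 genes, where 47.3% of all features were above 0, and its median was -0.32 for the members and -0.04 for all features. Again 0 members passed at an adjusted p under 0.05 (0.0% of all features) or at an unadjusted p under 0.05 (2.92%). Of the small subunit genes 5 of 24 and of the large subunit genes 2 of 40 were above 0, with medians of -0.31 and -0.32. Within letters the medians were 0.07, -0.31 and -0.60 for b, c and d. Leaving out NLS 1GH d gave -0.09 with 22 of 64 above 0, and leaving out NLS 0GH c gave -0.14 with 19 above 0, while without NLS 0GH b it was -0.48 with 4 above 0. Without letter d it was -0.15 with 19 above 0. Without centring the median was -0.01 with 31 of 64 above 0, where that of all features was 0.27. In 20 genes (31.2%) the difference was below 0 in all 3 letters, against 12.8% of all features, and in 1 gene (1.56%) it was above 0 in all 3, against 12.7%.

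Groups did not overlap for 3 genes, all lower at 1GH, against 7.29% of all features. They were Rpl8, Rpl10 and Rpl13, all of the large subunit. Rpl13 read 1.23, 1.41 and 1.37 in NLS 0GH and 0.75, 0.85 and 0.63 in NLS 1GH, a difference of -0.60 (SE 0.40, limma unadjusted p = 0.166). Its WT arrays were spread wider, at 0.14, 1.29 and 0.65 for 0GH and 0.28, 0.83 and 1.31 for 1GH, and this spread enters the SE. Rpl10 went from 0.08, 0.65 and 0.09 to -0.06, 0.06 and -0.18, and Rpl8, which contacts the RNA of the peptidyl transferase centre, from 0.28, 0.62 and 0.31 to 0.23, 0.01 and 0.00. The smallest p below 0 belonged to Rpl7 (-0.91, SE 0.55, limma unadjusted p = 0.131), Rpl13 and Rps23 (-1.43, SE 1.06). Without the array of NLS 1GH b, the Rps23 value was 0.07. Above 0 the first were Rps6 (0.41, SE 0.61), Rps15 (0.20, SE 0.53) and Rps3 (0.13, SE 0.45). Each of these genes had a limma adjusted p of 1.0.

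The test of the difference between the receptor forms, NLS GH difference minus WT GH difference, gave values below 0 for 60 of 64 genes, with a median of -0.63 for the members and -0.06 for all features. At an adjusted p under 0.05 it called 0 members and 0.0% of all features, and at an unadjusted p under 0.05 0 members and 2.42% of all features. The median was -0.64 for small subunit genes and -0.62 for large subunit genes, with 1 of 24 and 3 of 40 above 0. It was -0.38 without NLS 0GH c and -0.40 without NLS 1GH d, each with 11 of 64 above 0, -0.42 without WT 1GH c, with 9 above 0, and -0.27 without letter d, with 13 above 0. Without centring the members' median was -0.05, with 28 of 64 above 0 and a median of all features of 0.52. So the opposite directions of the members' median GH difference stood relative to the rest of the array. Uncentred, these medians were 0.05 in WT and -0.01 in NLS. On letter b the centred medians ran the other way, at -0.06 and 0.07. Mitochondrial ribosomal protein genes (0.12 and -0.28) and other TOP messenger RNAs (0.16 and -0.29) had the members' directions. For TOR pathway genes the medians were 0.01 and -0.22, where those of all features were 0.03 and -0.04. Their median difference between receptor forms was 0.02, with 8 of 15 genes above 0. Assembly factors were below 0 with both receptor forms (-0.22 and -0.19).

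The 3 values below 0 with the smallest p were -2.75 (SE 1.49, limma unadjusted p = 0.0947) for Rps23, -1.0 (SE 0.61) for Rps7 and -1.06 (SE 0.70) for Rpl28. Above 0 they were Rps6 at 0.80 (SE 0.86), Rpl22 at 0.83 (SE 1.36) and Rplp0 at 0.31 (SE 0.61), which are 3 of the 4 members above 0. The limma adjusted p of each was 1.0.

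The receptor forms were also compared at each GH number. These comparisons use the same 12 arrays as the GH differences, so they are no further evidence of them. At 0GH, NLS minus WT was above 0 for 56 of 64 genes (49.7% of all features), with a median of 0.37, and 0 passed at an adjusted p under 0.05 (0.0% of all features) or an unadjusted p under 0.05 (4.61%). Groups did not overlap for 5 genes, Rpl34, Rps12, Rps13, Rps19 and Rps21, all higher in NLS, against 9.13% of all features. Rps13 read 0.50, 0.86 and 0.51 in WT 0GH and 0.93, 1.38 and 1.27 in NLS 0GH, a difference of 0.57 (SE 0.36, limma unadjusted p = 0.144). Within letters the members' medians were 0.10, 0.40 and 0.58. Without centring the members' median was 0.19 with 45 of 64 above 0, where that of all features was -0.18. Without NLS 0GH c the members' centred median was 0.14 with 44 above 0, and without WT 0GH b it was 0.24 with 53 above 0. Without letter d it was 0.23 with 49 above 0.

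By smallest p at 0GH, Rps12 (1.14, SE 0.59, limma unadjusted p = 0.0837), Rps7 (0.76, SE 0.43) and Rpl9 (0.88, SE 0.54) led the higher side. Rpl24 (-0.91, SE 0.93), Rpl39 (-0.37, SE 0.46), a protein of the exit tunnel, and Rplp0 (-0.20, SE 0.43) led the lower one. Without the letter b arrays, Rpl24 was at 0.04.

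At 1GH, NLS minus WT was above 0 for 15 of 64 genes (46.8% of all features), with a median of -0.24, and 0 passed at an adjusted p under 0.05 (0.0%) or an unadjusted p under 0.05 (3.49%). Without centring the members' median was 0.16 with 40 of 64 above 0, where that of all features was 0.35. The sign turned in the uncentred ratios, while the members' median minus that of all features was -0.19 with and without centring. Within letters the members' median was 0.26, -0.36 and -0.68, so letter b ran against c and d. Without WT 1GH c the median was -0.06 with 27 of 64 above 0, where that of the members minus that of all features was 0.03, and without NLS 1GH d it was -0.08 with 26 above 0. Without WT 1GH b it was -0.48, without NLS 1GH c -0.47, and without letters b and d in turn -0.46 and -0.04. Groups did not overlap for 2 genes, Rpl3 and Rps23, both lower in NLS, against 8.72% of all features. Rpl3, which lies beside the peptidyl transferase centre, read 0.42, 0.55 and 0.71 in WT 1GH and 0.07, 0.13 and -0.08 in NLS 1GH, a difference of -0.52 (SE 0.45). The smallest p belonged to Rps23 (-2.28, SE 1.06, limma unadjusted p = 0.056), followed on the lower side by Rps26 (-0.79, SE 0.46) and Rps19 (-2.91, SE 2.0). Without the WT 1GH c array, Rps19 was at 0.19. On the higher side they were Rps12 (0.91, SE 0.59), Rpl39l (0.83, SE 0.61) and Rps6 (0.81, SE 0.61).

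Averaged over both GH numbers, the receptor difference of the members had a median near that of all features. It was above 0 for 35 of 64 genes (47.7% of all features), with a median of 0.05 against -0.03 for all features, and 0 passed at an adjusted p under 0.05 (0.0% of all features). At an unadjusted p under 0.05 there was 1 gene, against 5.27% of all features. It was Rps12, at 1.02 (SE 0.42, limma unadjusted p = 0.0349, adjusted p = 0.899). All 6 NLS arrays stood apart from all 6 WT arrays for 0 members and for 0.725% of all features. Rpl39l followed at 0.84 (SE 0.43, limma unadjusted p = 0.0786), from 0.31, 0.57 and -1.07 in WT 0GH and -0.70, 0.60 and -1.0 in WT 1GH to 1.09, 1.26 and 0.01 in NLS 0GH and 0.88, 0.58 and -0.06 in NLS 1GH. Rps13 was at 0.31 (SE 0.26). Rpl24 (-0.99, SE 0.66), Rpl39 (-0.45, SE 0.32) and Rps23 (-0.90, SE 0.75) led the lower side.

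The Rps12 value was a mean of 2 spots that disagreed. With WT the first read 0.23 ± 0.26 (SD, n = 3) at 0GH and 0.72 ± 0.79 at 1GH, and with NLS 0.28 ± 0.51 and 0.10 ± 1.13, with overlap and NLS minus WT at -0.28. The second read -0.47 ± 0.84, -0.72 ± 1.11, 1.77 ± 0.54 and 1.71 ± 1.48 in the same order. There all 6 NLS arrays (0.71 to 3.41) lay above all 6 WT arrays (-1.99 to 0.14), and NLS minus WT was 2.33. This spot was singled out after its values were seen and gets no test. Its record belongs to a set of 30 records from the same range of record numbers, of which 7 carry symbols of small RNAs. The sources used here do not say which transcript the spot reads. The same set holds 5 member spots in all, of Rps12, Rpl27a, Rpl23, Rpl32 and Rps16. For Rpl32 it is the only spot, so its values in the comparisons rest on that spot alone. Those of Rpl27a, Rpl23 and Rps16 lacked a value on some arrays and did not enter the main comparisons.

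Rplp0 also had 2 spots with values on all arrays. On the first, whose Entrez identifier is not in the RefSeq table used, WT 1GH minus WT 0GH was -1.28, with group SDs of 0.36 to 1.90. On the second it was 0.36, with group SDs of 0.38 to 0.68. The place of Rplp0 among the genes below 0 in the WT comparison therefore came from the mean of spots with opposite signs, and follows the first spot. Its run against the other members was also taken from that mean and was not computed for each spot. Rps18 had a second spot with 8 values, from -12.44 to -1.65, which did not enter the comparisons. Its first spot averaged 0.68 and ran from -0.64 to 1.35.

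**Figure D5:**
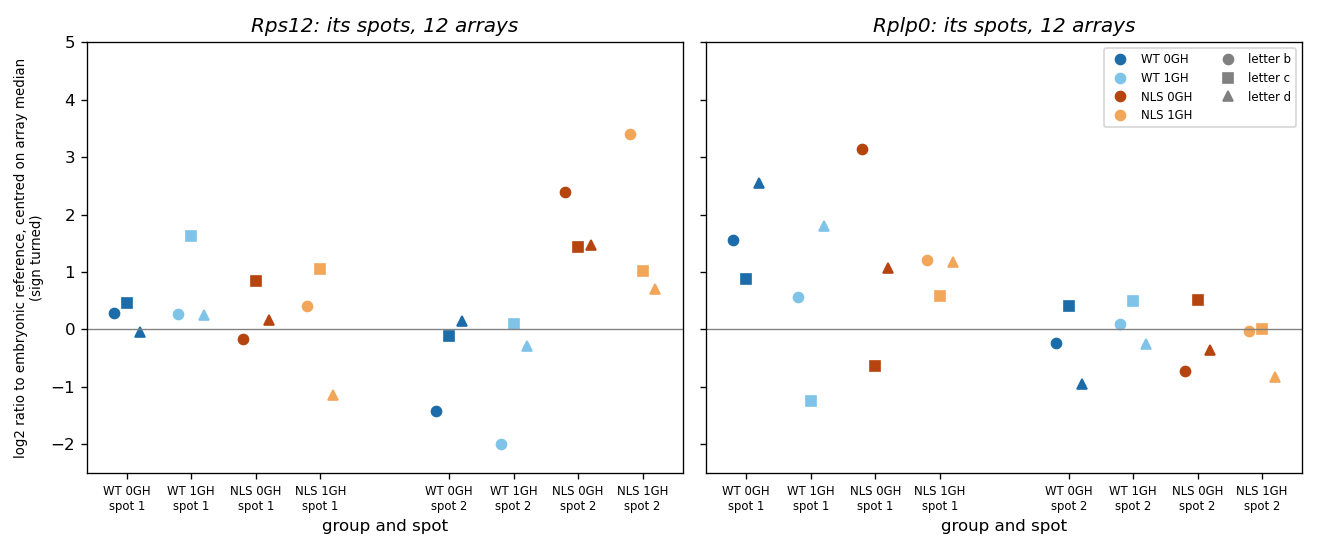
Centred log2 ratios of the 2 spots of Rps12 (left) and of Rplp0 (right) on the 12 arrays, by group (colour) and letter (symbol). On the second spot of Rps12 all NLS arrays (lowest 0.71) lie above all WT arrays (highest 0.14), which the first spot does not show.

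Related genes were set beside the members by their counts. Other TOP messenger RNAs, such as those of elongation factors, were listed by name, and no count of motif matches was made for them. Of 19 such genes tested, 12 were above 0 in the WT GH difference (median 0.16) and 2 in the NLS one (median -0.29). Against the reference, 11 were called higher (22.9% of all features were), at a median level of 0.70. Of 57 mitochondrial ribosomal protein genes, which serve another ribosome, 33 were above 0 in WT (median 0.12) and 18 in NLS (median -0.28), and 17 were called higher and 6 lower in level, where 22.9% and 23.2% of all features were. Of 15 genes of TOR and S6 kinase signalling, 8 were above 0 in WT and 5 in NLS. Of 17 chaperones and assembly factors, 6 were above 0 in WT and 7 in NLS, and 14 were above 0 for NLS minus WT over both GH numbers, with a median of 0.85, where the members' median was 0.05. No gene of these lists passed at an adjusted p under 0.05 in a GH or receptor comparison, and the lists were not tested as sets.

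Genes with and without a TOP-like start at the annotated position had close medians. The 23 genes with the match had a median level of 0.68 and median GH differences of 0.33 in WT and -0.30 in NLS. The 31 genes without it had medians of 0.60, 0.28 and -0.33. Of the genes whose starts are printed above, those with the match had levels of 1.02 (Rps6), 0.98 (Rps10), 0.68 (Rps18), 0.46 (Rpl35), 0.00 (Rpl7a) and -0.34 (Rplp2), and those without it 1.54 (Rpl5) and 1.10 (Rps3).

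The level also ran with the position of the spot. Member spots whose position carried 1, 2, 3 or 4 as the third number had median levels of 0.57, 0.85, 0.85 and 0.18, while the other spots at these positions had medians of 0.11, -0.10, -0.05 and 0.10. Rplp1, Rplp2, Rpl14 and Rpl7a, the lowest members, sat at 4, where member spots ran from -0.34 to 1.05. Rpl5 and Rps3 sat at 2, and Rpl11, Rps10 and Rpl4 at 3. The spots of Rpsa averaged 0.87 at 2 and 0.27 at 4, and those of Rpl27a 0.60 at 4 and, with 9 values, -1.27 at 2. What this number means was not found in the sources used here, and its part in the order of the genes was not tested. When ratios were centred within each value of this number, 39 members were called higher, and the members' median GH differences were 0.32 in WT and -0.33 in NLS. That centring removes the median of all spots at a position, which differed little. It leaves the gap between members at different positions in place and is no test of it.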

How the data were processed

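The 12 deposited columns hold log2 ratios between channels; the authors applied a Lowess fit over 50% of the data with a floor of 200 for the control channel, per the file headers and labels, and the base is not stated. It was taken as 2, although the range of -14.58 to 18.18 exceeds the 8.36 that a 16-bit scanner gives in log2 over that floor, and a larger base would exceed its limit further. The sources used here do not give the scanner, the background method or the numerator. All values were multiplied by -1 and centred per array on the median of features with a value on every array. Spots of a gene were averaged. Comparisons used limma 3.58.1 (lmFit and eBayes, group means, no block, all 12 arrays) in R 4.3.3, two-sided, with Benjamini-Hochberg adjustment over 10762 features and a threshold of 0.05. The procedure was tested on simulated data. Rps4l was left out because RefSeq lists it as a pseudogene. Start sequences came from RefSeq (GRCm38.p6). The members, gene lists and comparisons were chosen with earlier results of these data known. Named genes are those past the threshold (for the level, the 5 with the smallest p), otherwise 3 on either side of 0 by smallest p, the 3 largest and 3 smallest within-group SDs, and a list of well-known members and paralogs.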

Additional observations from a re-analysis of the deposited data

How the results depend on the processing

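In the 6 comparisons between groups, 0 members and 0 of all features passed under any of the 24 alternatives, planned or added after seeing the data. Without centring, the median GH differences shrank to 0.05 (WT) and -0.01 (NLS), their difference to -0.05, and NLS minus WT at 1GH turned from -0.24 to 0.16. In that last comparison the median of all features was -0.05 with centring and 0.35 without it. The median level was 1.03 without centring, and leaving out arrays or letters gave medians of 0.43 to 0.81, 13 to 41 called members and 2756 to 4727 called features, with letters c and d the largest losses. For the receptor difference over both GH numbers, leaving out arrays gave medians of -0.07 to 0.14.

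Letters as a fixed replicate block called 44 members in level against 39 (49.7% of all features), and as a random block 34 (36.8%), and 0 in the other comparisons. Deviations of same-letter arrays correlated at 0.043 to 0.263, over 0.1 in 15 of 18 pairs, and those of different-letter arrays at -0.187 to 0.066, over 0.1 in 0 of 36.

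Some single genes changed sign when arrays were left out. The ranges for NLS 1GH minus NLS 0GH were -0.14 to 0.67 (Rps15), -0.14 to 0.50 (Rps3) and -2.32 to 0.07 (Rps23). For the difference between receptor forms they were -0.44 to 1.5 (Rpl22) and -0.22 to 0.67 (Rplp0). At 0GH, NLS minus WT ranged from -1.43 to 0.04 (Rpl24) and -0.57 to 0.09 (Rplp0), and at 1GH from -0.02 to 1.47 (Rps12), -0.03 to 1.65 (Rps6) and -4.76 to 0.19 (Rps19). With green dye incorporation as a covariate, Rps6 was at -0.06 between receptor forms and -0.11 at 1GH, and Rps19 at 0.67 at 1GH; the cause was not tested.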

Other observations

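Spots near the members that the rule left out gave these mean levels over 12 arrays. Rpl36al was at 0.98 (SD 0.51) and ranged from 0.30 to 1.79. A spot naming both Rpl12 and Snora65 was at 1.12 (SD 0.50), and one naming Rpl36-ps12 and Rpl36 at 0.71 (SD 0.62). The pseudogenes Rpl30-ps2 and Rpl29-ps1 were at 0.82 (SD 0.69) and 0.81 (SD 0.42). Rps4l, a paralog of Rps4x that RefSeq lists as a pseudogene, was at -2.34 (SD 0.94) and below 0 on all arrays, with a highest value of -1.45.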
